A study of Mus musculus with 8 samples.

Results

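The clustered protocadherins are 57 of the 55202 genes in the deposited count tables, chosen by symbol: every gene named as an alpha, beta or gamma protocadherin with its number, the C-type members included. They comprise 13 alpha, 22 beta and 22 gamma genes, which lie side by side on mouse chromosome 18 (mm10), the alpha cluster from 36930184 to 37187661, the beta cluster from 37264938 to 37524479 and the gamma cluster from 37661793 to 37841873. Gene expression was measured by RNA sequencing in subplate, the deepest layer of the developing cortex, which was dissected by eye from sections of mouse somatosensory cortex at postnatal day 0. The study asked what removal of Lhx2, a LIM-homeodomain transcription factor, does when it happens in progenitors of the cortex or only after neurons have formed. Emx1Cre11.5;Lhx2lox/lox mutants lose Lhx2 in progenitors of the dorsal telencephalon and so in the neurons and glia made from them. NexCre;Lhx2lox/lox mutants lose it in postmitotic excitatory neurons, where the Neurod6 locus drives the Cre. Each line has its own controls, which are labelled wild type, and the labels used here do not say whether those controls carried Cre or lox alleles. All mice were of mixed strain background. Each of the 4 groups holds 2 libraries and each library pools tissue of 2 brains. The labels give each pool as a sample of its own and say nothing more on how far pools are independent, so the p-values measure only the spread between these pools.

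Clustered protocadherins are cadherin-related cell surface proteins with which a neuron marks its own identity. In the alpha and gamma clusters, each gene has its own large first exon and its own promoter, and this exon is spliced to constant exons that all genes of the cluster share, so that the extracellular part differs and the cytoplasmic part does not. Beta genes have no constant exons. Most isoforms are switched on in few neurons each, through promoters bound by CTCF and cohesin, whereas the C-type isoforms, at the end of the alpha and gamma clusters, are used more evenly. Like isoforms on facing membranes bind each other, and this recognition keeps branches of the same neuron apart and spaces axons and dendrites in the cortex and elsewhere.

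Libraries held 31.2 to 64.4 M counted reads, and 17592 to 21760 genes had at least 10 reads. All 12 subplate marker genes examined were detected in every library, and their summed level was 653 to 736 CPM (reads of a gene per M reads of its library, scaled by the trimmed mean of M-values, TMM) in Emx1Cre controls, 561 to 629 in Emx1Cre mutants, 278 to 279 in NexCre controls and 219 to 247 in NexCre mutants. Lhx2 itself had 90.4 and 91.5 CPM in Emx1Cre controls and 64.0 and 42.7 CPM in Emx1Cre mutants. It had 182 and 236 CPM in NexCre controls and 227 and 245 CPM in the libraries labelled NexCre mutant. The log2 fold change of Lhx2 was −0.77 ± 0.20 (SE from the fit) in Emx1Cre mutants, with a 95% interval of −1.21 to −0.32. For it edgeR's quasi-likelihood test gave an unadjusted p of 0.0032 and an adjusted p of 0.273. In NexCre mutants the log2 fold change of Lhx2 was 0.18 ± 0.20, with a 95% interval of −0.26 to 0.62. Lhx2 transcripts were thus no scarcer in NexCre mutant libraries than in their controls, and counts per gene do not show whether the transcripts lack the deleted part. The small nuclear RNA Rn7sk had 17400 to 22420 CPM in NexCre and only 1.44 to 35.7 CPM in Emx1Cre libraries, so that line, strain background and library preparation cannot be told apart.

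How much of each protocadherin gene could be counted separately depended on its cluster. In the GENCODE M21 annotation the beta genes overlapped other genes little: 19 of 22 shared no exonic base with another gene, and the exceptions were Pcdhb12, of which 36.5% was its own, Pcdhb21 with 90.3% and Pcdhb22 with 93.1%. Alpha genes owned 7.00% to 51.4% of their exonic bases and gamma genes 0% to 68.5%. Gm42416, an annotated readthrough gene, covers 41.8% of Pcdha4. Pcdhga10 owned 0 of its 4732 exonic bases when strand was ignored and 2613 when only genes on its own strand were counted, and it had 0 reads in all 8 libraries. Pcdha4 owned 404 of 5768 bases and had 0 reads in each of the 4 Emx1Cre libraries, 7 and 9 in NexCre controls and 2 and 26 in NexCre mutants. These 2 genes were the only members that did not pass the filter on low counts, so 12 alpha, 22 beta and 21 gamma genes were tested. The annotated readthrough genes Gm42416, Gm37013 and Gm37388, which span several members, had 0 reads in every library. The library kit does not mark strand, members of a cluster are close copies of each other, and counts of any single member are uncertain to the extent that reads fitted several copies. Pcdhgb8 is annotated as a polymorphic pseudogene, and the symbol Pcdha11 stands for 2 gene entries in the annotation.

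**Figure D1:**
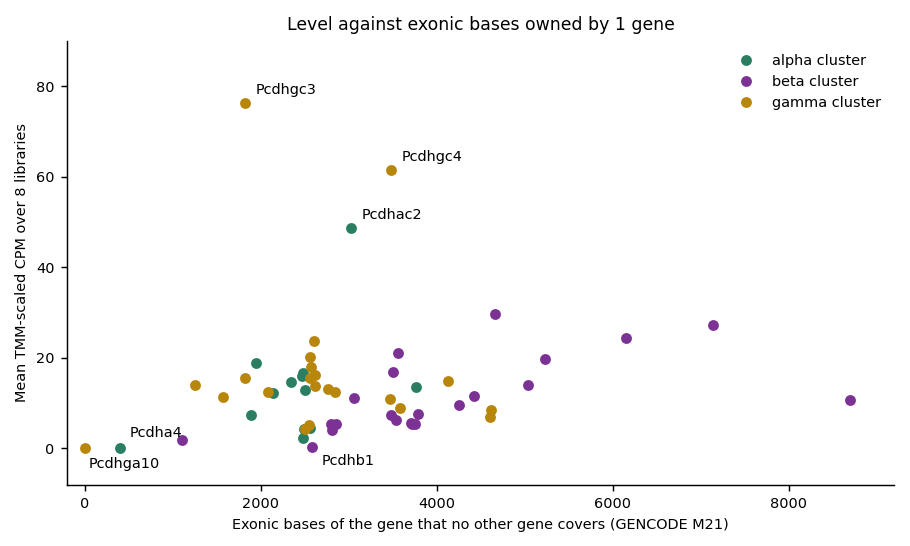
Mean TMM-scaled CPM over the 8 libraries (vertical axis) against the exonic bases of each gene that no other gene covers (horizontal axis), 1 point per clustered protocadherin, coloured by cluster. Pcdhgc3, Pcdhgc4 and Pcdhac2 stand above the rest, and Pcdhga10, with 0 bases of its own, had 0 reads.

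C-type genes held the highest and some of the lowest levels. Levels were divided by the kilobases each gene owns, with strand ignored. This makes genes comparable in so far as reads from shared bases were left out of the counts. On this scale Pcdhgc3 had a mean of 41.9 CPM per kilobase over the 8 libraries, with 37.8 in the lowest and 48.9 in the highest. Pcdhgc4, the gamma isoform that many neurons in the mouse need to survive, had 17.7 (13.2 to 26.6), and Pcdhac2, with which serotonergic axons in the mouse keep their spacing, had 16.1 (12.8 to 22.2). The other C-type genes were far lower: Pcdhac1 had 1.71 CPM per kilobase and Pcdhgc5, an isoform known to appear mainly after birth, had 1.51, the lowest of the gamma genes that were tested.

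Among the numbered isoforms, Pcdhga11 had 11.1 CPM per kilobase (8.00 to 16.0), Pcdha12 had 9.69 (6.86 to 14.6) and Pcdhga3 had 9.15 (7.30 to 10.6). This order depends on strand: Pcdhga11 owned 1256 bases when strand was ignored and 2637 on its own strand. For Pcdha12 these were 1944 and 2475, whereas Pcdhga3 owned 2601 either way. In plain CPM, Pcdhga11 had a mean of 14.0, below Pcdhga3 at 23.8. The highest beta value per kilobase was lower, at 6.38 for Pcdhb17 (4.12 to 9.54), followed by 5.92 for Pcdhb20 and 4.81 for Pcdhb7. The ranges of neighbours in this order overlapped, apart from Pcdhgc3 at the top and, within the beta cluster, Pcdhb1 at the bottom. With strand ignored, the lowest library of Pcdhgc3 lay above the highest library of every other member. That separation depends on strand: Pcdhgc3 owned 1821 bases when strand was ignored and 3380 on its own strand, whereas Pcdhgc4 owned 3477 either way. In plain CPM the lowest library of Pcdhgc3, at 68.8, lay below the highest of Pcdhgc4, at 92.6. At the bottom, Pcdha8 had 0.902 and Pcdhb1 0.0794. Pcdhb1 was the only tested member with fewer than 25 reads in every library: it had 2 and 2 reads in Emx1Cre controls, 15 and 7 in Emx1Cre mutants, 5 and 24 in NexCre controls and 12 and 2 in NexCre mutants. A few genes made up much of each cluster's reads. Pcdhac2 held 26.1% to 30.2% of alpha reads in the 8 libraries, Pcdhgc3 18.6% to 22.9% and Pcdhgc4 12.1% to 21% of gamma reads, whereas no beta gene held more than 13.7% of beta reads.

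**Figure D2:**
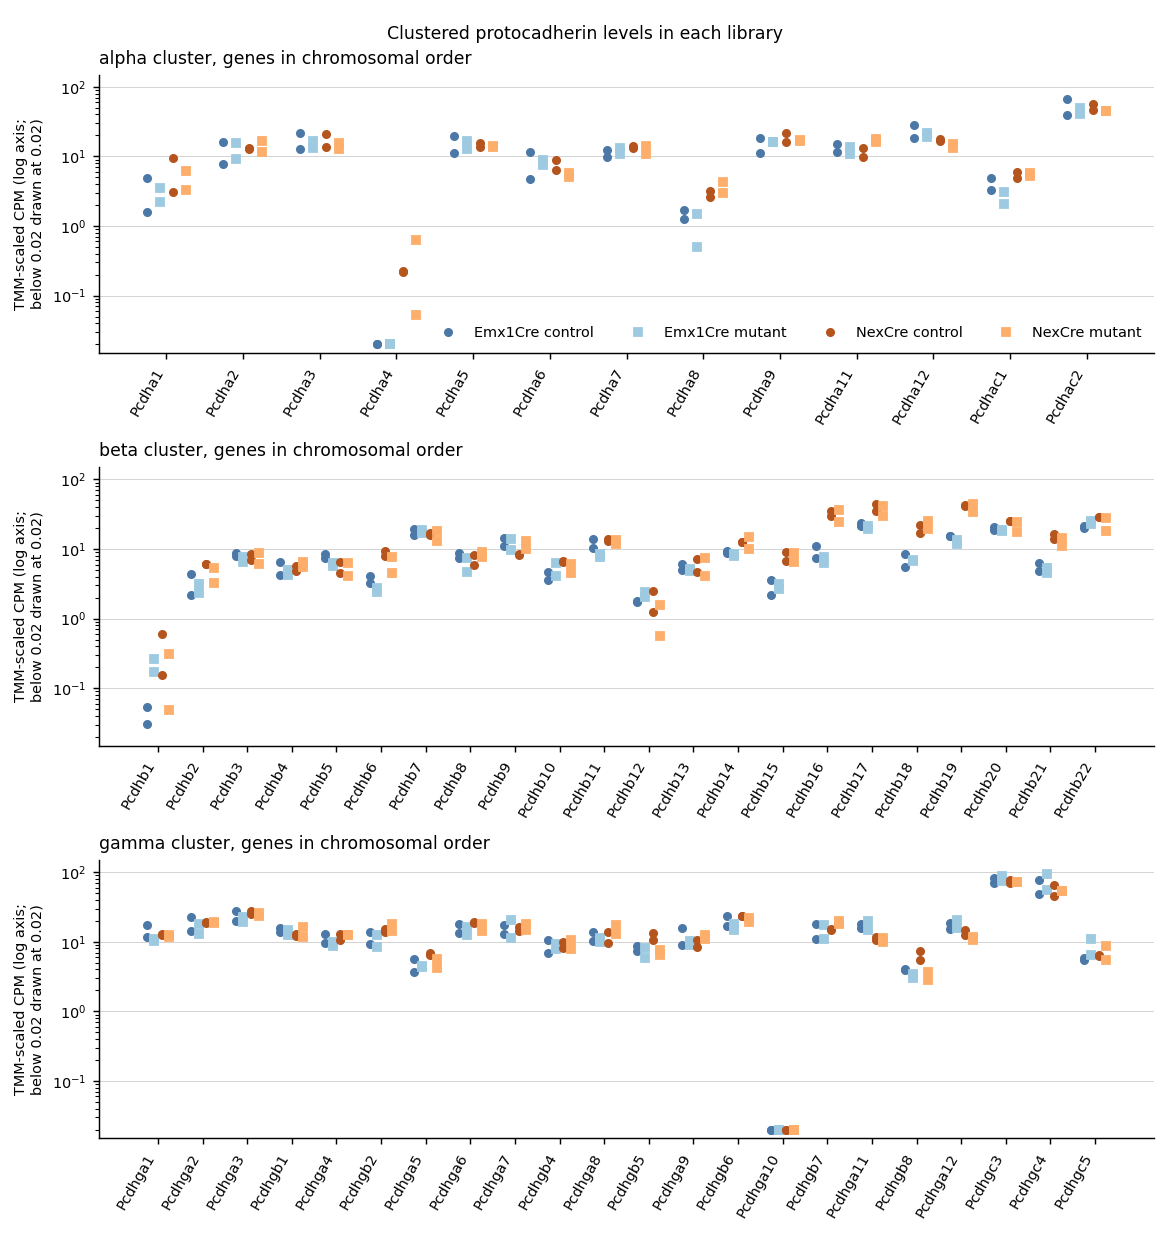
TMM-scaled CPM (log axis) of each clustered protocadherin in each of the 8 libraries, genes in chromosomal order, controls as circles and mutants as squares, Emx1Cre in blue and NexCre in orange. Mutants and controls of a line lie close together for most genes, and Pcdhb15 to Pcdhb19 and Pcdhb21 lie higher in all 4 NexCre libraries.

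The mean summed level of each cluster in mutants was 0.912 to 0.995 of that in controls over both lines. With 2 libraries in a group, this does not show that the levels were alike. Alpha genes summed to 133 and 222 CPM in Emx1Cre controls, 145 and 181 in Emx1Cre mutants, 163 and 197 in NexCre controls and 171 and 163 in NexCre mutants. Beta genes summed to 193 and 213 CPM in Emx1Cre controls, 178 and 193 in Emx1Cre mutants, 326 and 309 in NexCre controls and 340 and 247 in NexCre mutants. Gamma genes summed to 327 and 447 CPM in Emx1Cre controls, 331 and 440 in Emx1Cre mutants, 393 and 378 in NexCre controls and 373 and 379 in NexCre mutants. Both alpha and gamma sums differed more between the 2 Emx1Cre control libraries than between the means of mutants and controls. The ratio of mean summed CPM in mutants to that in controls was 0.916 for alpha, 0.912 for beta and 0.995 for gamma genes in the Emx1Cre line. In the NexCre line it was 0.928, 0.925 and 0.976. An exact two-sided permutation test of 2 libraries against 2 cannot give a p below 0.333, so no such ratio could pass a threshold of 0.05.

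Libraries of 1 group differed across most alpha and gamma genes in the Emx1Cre line. Of the tested members, 11 of 12 alpha, 15 of 22 beta and all 21 gamma genes had a higher level in Emx1Cre control 2 than in control 1, with median log2 differences of 0.72, 0.23 and 0.43, beside 43.9% of all genes. Emx1Cre mutant 2 was above mutant 1 for 12 of 12 alpha, 13 of 22 beta and 19 of 21 gamma genes, beside 42.3% of all genes. Excitatory neuron markers (10 genes) summed to 1637 and 2033 CPM in Emx1Cre controls 1 and 2 and to 1562 and 1504 in mutants 1 and 2, and radial glia and progenitor markers (12 genes) to 707 and 436 in the controls and 720 and 613 in the mutants. Interneuron markers (10 genes) summed to 438 and 555 CPM in the controls and 547 and 913 in the mutants, and striatal markers (8 genes) to 248 and 340 and to 201 and 560. On both lists Emx1Cre mutant 2 had the highest sum of the 8 libraries. The part of these cell types in the protocadherin levels was not tested, and in bulk tissue fewer cells of a type and less RNA per cell cannot be told apart. Of the NexCre libraries, mutant 2 was below mutant 1 for 21 of 22 beta genes, with a median log2 difference of −0.45. In contrast, 13 of 21 gamma genes were higher in mutant 2, beside 49.9% of all genes.

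**Figure D3:**
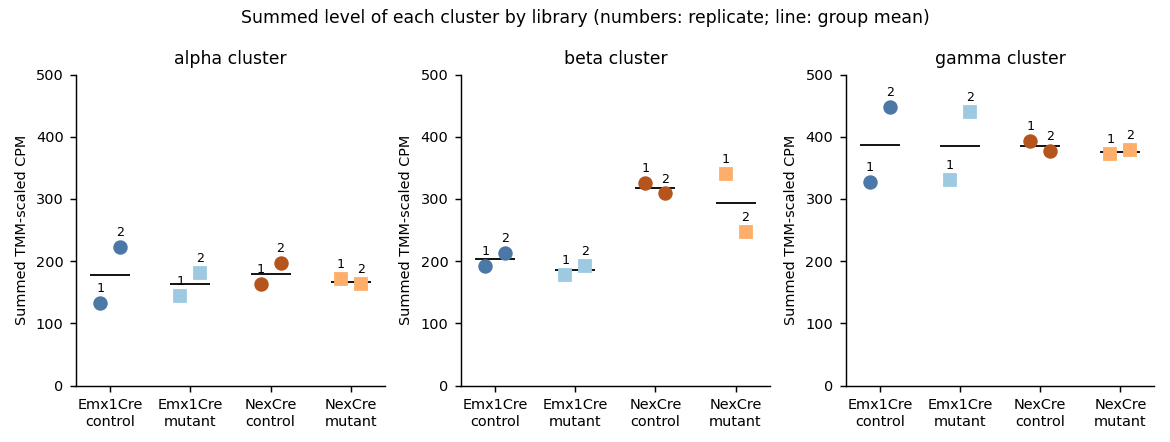
Summed TMM-scaled CPM of all members of each cluster in each library, with the replicate number above each point and a line at the mean of the group. Beta sums are 178 to 213 in Emx1Cre and 247 to 340 in NexCre libraries, and the Emx1Cre libraries numbered 2 are the higher ones of their group in all 3 clusters.

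No clustered protocadherin passed the test in Emx1Cre mutants, the mice that lost Lhx2 in cortical progenitors. Of 55 members tested, 0 had an adjusted p under 0.05 (edgeR's quasi-likelihood test, Benjamini-Hochberg adjustment over all genes), beside 0.0789% of all genes tested, which is 18 genes. DESeq2 also called 0 members, beside 1.48% of all genes. Only Pcdhb11 had an unadjusted p under 0.05, which is 1.82% of the members beside 7.59% of all genes. The median log2 fold change was −0.16 over the alpha, −0.15 over the beta and −0.14 over the gamma members tested, beside 0.00 over all genes. The median moved to 0.22 for alpha and 0.12 for gamma members without Emx1Cre control 2, to 0.03 for both alpha and gamma members without Emx1Cre mutant 1 and to −0.01 for beta members without Emx1Cre control 2.

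The 95% interval of the log2 fold change lay within −1 to 1 for 42 of 55 members in Emx1Cre mutants, beside 54.5% of all genes, and 19 of these were gamma, 14 beta and 9 alpha genes. The median SE over members was 0.27. Both mutant libraries lay above both controls for 4 members (7.27%, beside 15.1% of all genes) and below both for 11 members (beside 15.2%). Of the 11, 8 were beta genes: Pcdhb3, Pcdhb5, Pcdhb6, Pcdhb8, Pcdhb11, Pcdhb14, Pcdhb19 and Pcdhb20.

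Among beta genes, Pcdhb11 (37421418 to 37425836) had 10.3 and 14.0 CPM in Emx1Cre controls and 8.46 and 7.58 CPM in Emx1Cre mutants. Both mutants were below both controls, and the log2 fold change was −0.60 ± 0.23 with an adjusted p of 0.575. Pcdhb6 had 4.10 and 3.30 CPM in controls and 2.75 and 2.45 CPM in mutants, again without overlap, with a log2 fold change of −0.51 ± 0.33. For Pcdhb1 the read counts given above yielded a log2 fold change of 2.36 ± 1.24, whose 95% interval of −0.40 to 5.12 was the widest of all members. Pcdhb17 and Pcdhb19, the beta genes with the most CPM, had log2 fold changes of −0.14 ± 0.20 and −0.27 ± 0.18.

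None of the 5 C-type genes of the alpha and gamma clusters passed the test in Emx1Cre mutants. Pcdhac1 had 3.30 and 4.84 CPM in Emx1Cre controls and 2.04 and 3.09 CPM in mutants, a log2 fold change of −0.66 ± 0.34. Pcdhac2 had 38.8 and 67.2 CPM in controls and 40.5 and 50.2 CPM in mutants, so its mutants lay between the controls, at −0.22 ± 0.24. Pcdhgc5 had 5.45 and 5.81 CPM in controls and 6.44 and 10.99 CPM in mutants, which did not overlap, at 0.63 ± 0.33. Their adjusted p-values were 0.722, 0.934 and 0.726. Pcdhgc3 had 68.8 and 83.3 CPM in controls and 75.7 and 89.1 CPM in mutants, and Pcdhgc4 had 49.2 and 75.9 CPM in controls and 56.0 and 92.6 CPM in mutants. For both, the groups overlapped, and the log2 fold changes were 0.12 ± 0.15 and 0.25 ± 0.28.

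Of the remaining members with the lowest p in their cluster, Pcdhga1 had 11.53 and 17.4 CPM in Emx1Cre controls and 10.8 and 10.4 CPM in mutants, with a log2 fold change of −0.45 ± 0.24. Pcdhgb6 was at −0.31 ± 0.22 and Pcdha8 at −0.59 ± 0.52, and both had overlapping groups. Without Emx1Cre control 2 the value of Pcdhgb6 was −0.0341, and that of Pcdha8 ran from −1.57 without Emx1Cre mutant 2 to −0.00171 without Emx1Cre mutant 1. Pcdha12, the numbered alpha gene with the highest level, was at −0.19 ± 0.23, with 18.4 and 28.4 CPM in controls and 18.9 and 21.9 CPM in mutants. Sums of some cell type markers also differed in this comparison. The 12 astrocyte markers, none of them at 0, summed to 2293 to 2584 CPM in Emx1Cre controls and 4593 to 5345 CPM in Emx1Cre mutants, and the 10 excitatory neuron markers to 1637 to 2033 and 1504 to 1562 CPM. The 9 markers of meninges and fibroblasts, of which Slc6a13 was at 0 in an Emx1Cre control, summed to 192 to 195 CPM in controls and 235 to 400 CPM in mutants. Interneuron markers summed to 438 to 555 and 547 to 913 CPM and striatal markers to 248 to 340 and 201 to 560 CPM, and on both lists the groups overlapped. The part of these differences in the protocadherin values was not tested.

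**Figure D4:**
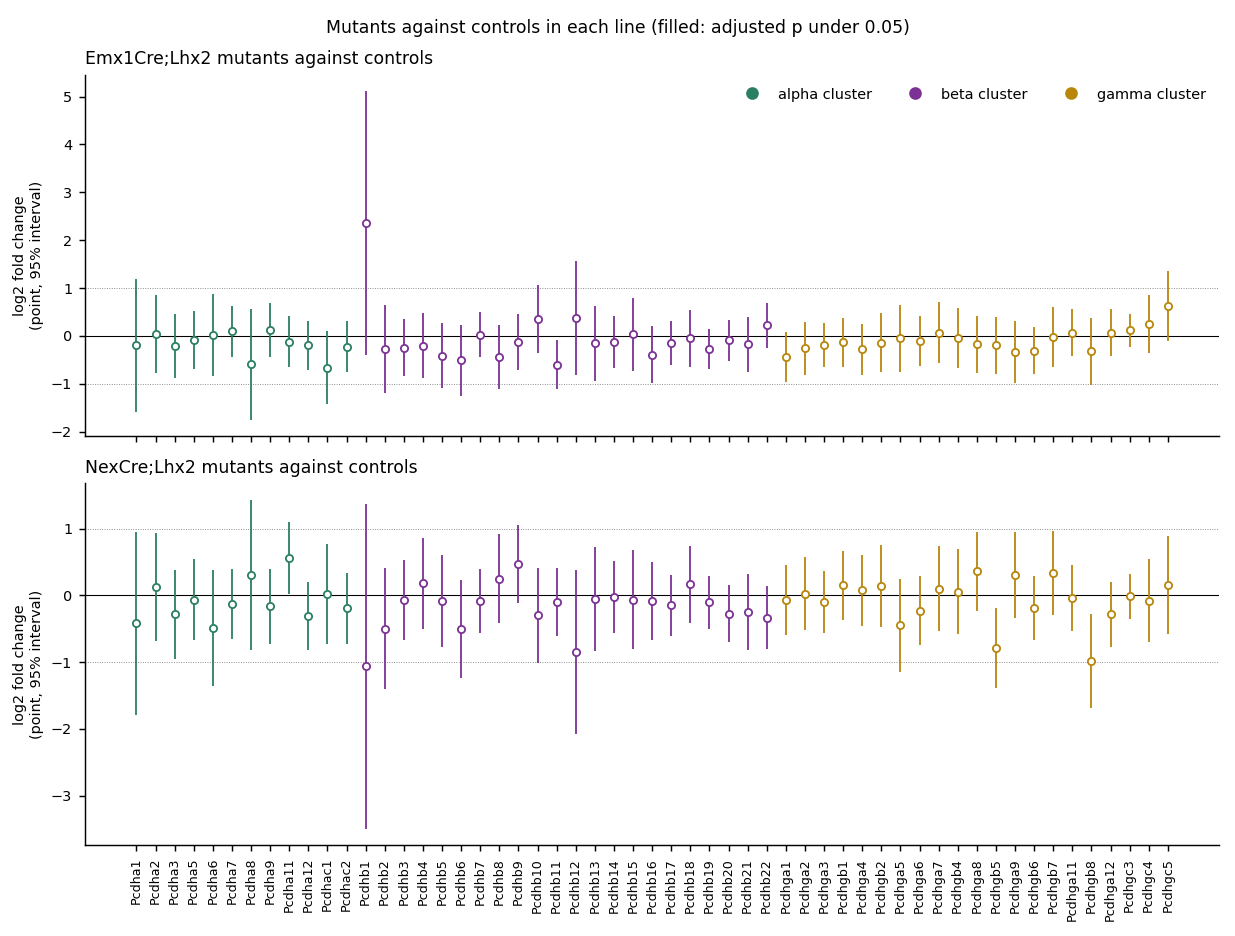
Log2 fold change of mutants against controls with its 95% interval for the 55 members tested, in chromosomal order, the Emx1Cre line above and the NexCre line below, dotted lines at a 2-fold change. No point is filled, since no member had an adjusted p under 0.05 in either line, and the interval of Pcdhb1 is the widest.

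In the NexCre mutants, with the deletion in postmitotic neurons, 0 of 55 members passed the same test, beside 0.0307% of all genes, which is 7 genes. DESeq2 called 0 members as well, beside 0.394% of all genes. An unadjusted p under 0.05 was found for 3 members (5.45%, beside 3.96% of all genes): Pcdha11 was higher in the mutants, and Pcdhgb5 and Pcdhgb8 were lower. The median log2 fold change was −0.15 over alpha, −0.09 over beta and −0.02 over gamma members, beside 0.00 over all genes. It was 0.07 for alpha members without NexCre control 2, and 0.09 for beta members without NexCre mutant 2 and −0.41 without NexCre mutant 1. The 95% interval lay within −1 to 1 for 42 of 55 members, beside 49.8% of all genes.

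The gamma B genes Pcdhgb5 and Pcdhgb8 had the lowest p-values of all members in the NexCre mutants. Pcdhgb8 had 7.41 and 5.39 CPM in NexCre controls and 3.66 and 2.79 CPM in mutants, a log2 fold change of −0.99 ± 0.32. Pcdhgb5 had 13.5 and 10.7 CPM in controls and 6.39 and 7.61 CPM in mutants, a log2 fold change of −0.79 ± 0.27. Both genes had mutants wholly below controls and an adjusted p of 1.00. In the Emx1Cre line the same genes were at −0.32 ± 0.31 and −0.20 ± 0.27. Pcdha11, an alpha gene, had 9.74 and 13.4 CPM in NexCre controls and 17.8 and 16.2 CPM in mutants, which did not overlap, with an adjusted p of 1.00 and a log2 fold change of 0.56 ± 0.24.

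The other members with the lowest p in their cluster all missed the threshold too. Among beta genes, Pcdhb9 had 8.47 and 8.24 CPM in NexCre controls and 13.3 and 9.87 CPM in mutants, at 0.47 ± 0.26 on the log2 scale. Pcdhb22 had 28.8 and 29.2 CPM in controls and 27.8 and 18.1 CPM in mutants, at −0.34 ± 0.21, and Pcdhb12 was at −0.84 ± 0.55. When a library was left out, these values ran from −0.693 to −0.063 for Pcdhb22, the latter without NexCre mutant 2, and from −1.77 to −0.242 for Pcdhb12, the latter without NexCre control 2. Of these, Pcdhb9 and Pcdhb22 had groups that did not overlap. Pcdha6 was at −0.49 ± 0.39, Pcdha12 at −0.31 ± 0.23 and Pcdhga5 at −0.45 ± 0.31, each with both mutants below both controls.

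Both mutant libraries lay above both controls for 4 members (7.27%, beside 18.1% of all genes) and below both for 14 members (25.5%, beside 17.7%), of which 3 were alpha, 5 beta and 6 gamma genes. Of the C-type genes, Pcdhgc3 had 77.4 and 70.3 CPM in NexCre controls and 73.3 and 72.6 CPM in mutants, at −0.02 ± 0.15. This log2 fold change was 0.00 with median-of-ratios scaling. Pcdhgc4 was at −0.08 ± 0.28, Pcdhac1 at 0.02 ± 0.34, Pcdhgc5 at 0.15 ± 0.33 and Pcdhac2 at −0.20 ± 0.24. Pcdhb17 and Pcdhb19 were at −0.15 ± 0.20 and −0.11 ± 0.18. Markers of choroid plexus (8 genes) summed to 6.49 and 390 CPM in NexCre controls and 23.4 and 2099 CPM in NexCre mutants, with the higher values in the libraries numbered 1. Thalamic markers (8 genes) were highest in NexCre control 1, at 258 CPM against 71.6 in control 2. The thalamic marker Gbx2 was at 0 in some library of the NexCre controls, the Emx1Cre controls and the Emx1Cre mutants. The part of these markers in the protocadherin values was not tested.

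The effects of the mutations were then compared between the lines in the same fit. The difference of the log2 fold changes passed the test for 0 of 55 members, beside 0.00438% of all genes, and DESeq2 called 0 members, beside 0.487%. At an unadjusted p under 0.05 there were 0 members, beside 5.44% of all genes. This does not show that the lines responded alike: the 95% interval of the difference lay within −1 to 1 for 17 of 55 members, beside 35.5% of all genes. Among these were Pcdhgc3, at 0.13 ± 0.22, Pcdhac2, at −0.03 ± 0.34, Pcdhb19, at −0.17 ± 0.26, and Pcdhga11, at 0.10 ± 0.31. Wider intervals left larger differences possible for Pcdhgc4, at 0.33 ± 0.39, and for Pcdhgb8, at 0.67 ± 0.44.

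A run of neighbouring beta genes differed between the control libraries of the lines. Pcdhb15, Pcdhb16, Pcdhb17, Pcdhb18, Pcdhb19 and Pcdhb21, which lie between 37473540 and 37518325, and Pcdhb6, which lies apart at 37333921 to 37337674, were higher in NexCre than in Emx1Cre controls, and the gamma gene Pcdhga11 was lower. These were 8 of 55 members called (14.5%, beside 45.8% of all genes), and DESeq2 called the 7 beta genes (beside 47% of all genes). The 7 higher ones are 31.8% of the 22 beta members, beside 26.6% of all genes called higher, a share near the background. None of the 12 alpha members and 1 of the 21 gamma members was called, and 0 alpha members had an unadjusted p under 0.05 (beside 53.6% of all genes) or were called by DESeq2. The median log2 fold change over all genes was 0.17 here (0.21 to 0.22 with the other scalings), so values for members stand against that shift: it was 0.48 over beta, 0.04 over alpha and 0.04 over gamma members.

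Pcdhb16 (37477814 to 37483038) differed most among the members called. It had 7.35 and 11.03 CPM in Emx1Cre controls, 6.24 and 7.75 in Emx1Cre mutants, 35.0 and 29.6 in NexCre controls and 36.3 and 24.6 in NexCre mutants. All NexCre libraries lay above all Emx1Cre libraries, and the log2 fold change between controls was 1.82 ± 0.27, for which edgeR gave an adjusted p of 0.000671. Pcdhb19 had 15.3 and 15.6 CPM in Emx1Cre controls, 11.9 and 13.7 in Emx1Cre mutants, 41.5 and 42.3 in NexCre controls and 44.1 and 33.7 in NexCre mutants. Its log2 fold change was 1.43 ± 0.19, with an adjusted p of 0.000324, the lowest of the members. These genes, single-exon members like most of the beta cluster, took up a different share of beta reads in each line: Pcdhb16 held 3.51% to 5.17% in Emx1Cre and 9.57% to 10.7% in NexCre libraries, and Pcdhb19 held 6.71% to 7.94% and 12.7% to 13.7%.

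The other genes of the run differed in the same direction. Pcdhb18 had 5.62 to 8.59 CPM over the 4 libraries of the Emx1Cre line and 17.03 to 25.2 CPM over those of the NexCre line, with a log2 fold change between controls of 1.48 ± 0.27. Pcdhb15 had 2.17 to 3.54 and 6.498 to 9.18 CPM, at 1.49 ± 0.34, and Pcdhb21 had 4.47 to 6.27 and 10.98 to 16.3 CPM, at 1.45 ± 0.26. Pcdhb17, the beta gene with the highest level per kilobase, had 19.2 to 23.8 and 30.2 to 44.5 CPM, at 0.82 ± 0.20. In each of these genes the lines did not overlap. Between and beside them, Pcdhb20 and Pcdhb22 were not called: Pcdhb20 was at 0.36 ± 0.19 with an adjusted p of 0.155, and Pcdhb22 at 0.47 ± 0.21 with an adjusted p of 0.0923. Pcdhb14, on the other side, was at 0.49 ± 0.24 with an adjusted p of 0.124.

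Pcdhb6 had 4.10 and 3.30 CPM in Emx1Cre controls and 7.91 and 9.41 CPM in NexCre controls, at 1.23 ± 0.33. Pcdhga11 (37755731 to 37841873) had 15.6 and 17.8 CPM in Emx1Cre controls and 11.6 and 10.4 CPM in NexCre controls, at −0.60 ± 0.22 with an adjusted p of 0.0493. That call was kept in 2 of 14 alternative analyses, over which its adjusted p ran from 0.0346 to 0.196. Pcdhb15, Pcdhb16, Pcdhb18, Pcdhb19 and Pcdhb21 were called in 14 of 14 alternatives and Pcdhb6 and Pcdhb17 in 12 of 14. The alternatives include a replicate block, a term for the library number in each line. With it the lines are compared at the fitted level of libraries numbered 1. Pcdhb17 was lost without Emx1Cre control 2 and without NexCre control 1, and Pcdhb6 without Emx1Cre control 2 and without NexCre control 2.

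**Figure D5:**
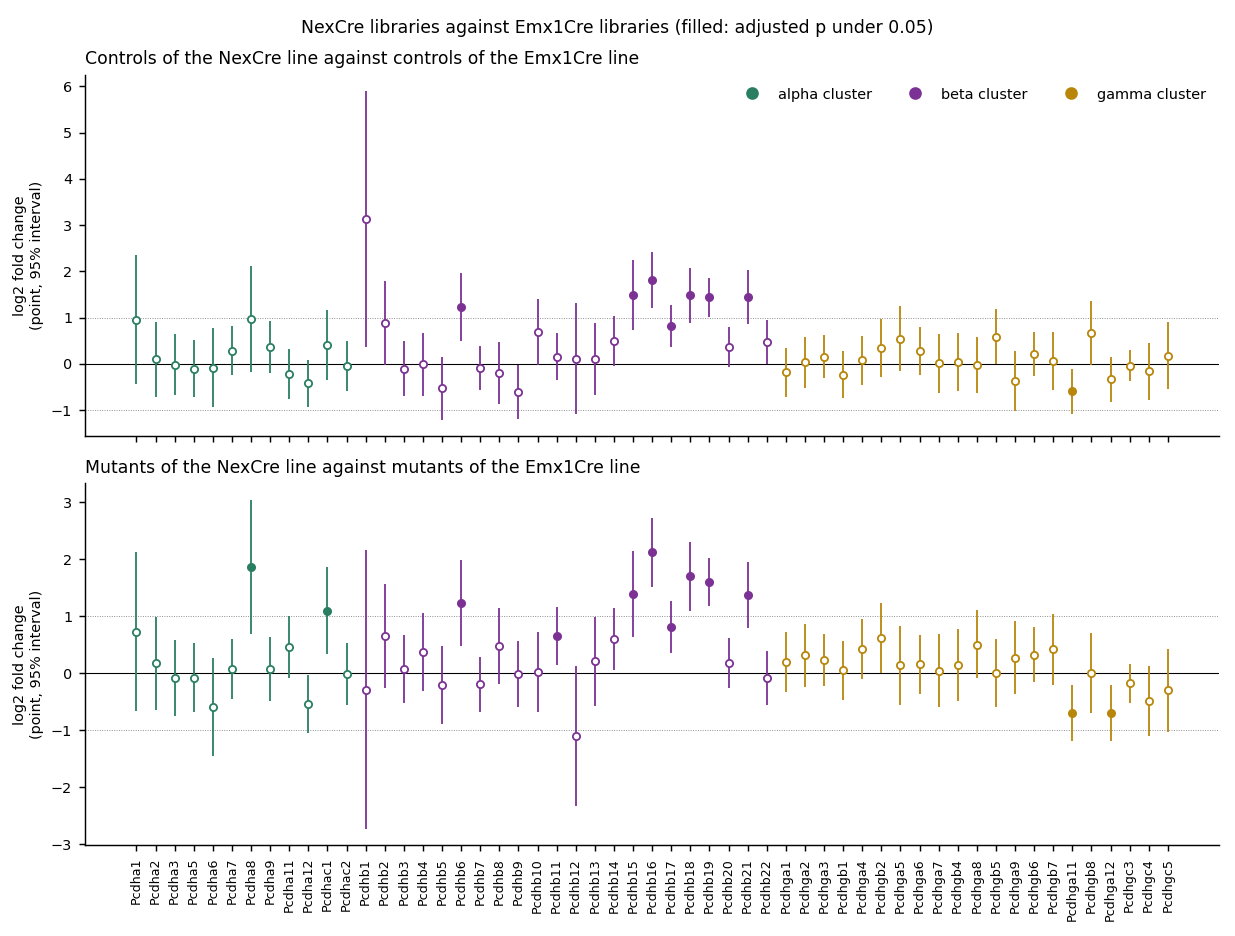
Log2 fold change of NexCre against Emx1Cre libraries with its 95% interval for the 55 members tested, controls above and mutants below, filled where the adjusted p was under 0.05. The same run of beta genes, Pcdhb15 to Pcdhb19 and Pcdhb21, is filled in both panels.

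The mutant libraries of the lines, which share no library with the controls, were compared in the same way, a comparison added after seeing the data. Both comparisons came from the same fit and shared its estimate of spread. Line, strain background and library preparation cannot be told apart in the mutants either. Of 55 members, 12 were called (21.8%, beside 49.5% of all genes), including all 8 called between the controls. The share of all genes called in both comparisons was not counted, so this overlap is not a result about the members. In these mutants the log2 fold change was 2.12 ± 0.27 for Pcdhb16, 1.60 ± 0.19 for Pcdhb19, 1.70 ± 0.27 for Pcdhb18, 1.39 ± 0.34 for Pcdhb15, 1.38 ± 0.26 for Pcdhb21 and 0.82 ± 0.20 for Pcdhb17. Pcdha8, Pcdhac1 and Pcdhb11 were also called higher in NexCre mutants and Pcdhga12 lower. Over all libraries, 10 members had all 4 NexCre libraries above all 4 Emx1Cre libraries (18.2%, beside 32.8% of all genes). Of these, 8 were beta genes, which is 36.4% of the 22 beta members, a share near that of all genes. Pcdha12, Pcdhga11 and Pcdhga12 had all 4 below, 5.45% of the members beside 24.4% of all genes.

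Profiles over the 55 members, as log2(CPM + 0.5), correlated with r of 0.957 to 0.975 between replicates, 0.943 to 0.972 between mutant and control libraries of a line and 0.837 to 0.914 between lines. Over the 22 beta members alone, r between lines was 0.823 to 0.904, whereas over the 12 alpha members it was 0.885 to 0.976 and over the 21 gamma members 0.892 to 0.959. These values describe the libraries, whose members share clusters and reads. The lines also differed in tissue markers: the 12 subplate markers and the 12 astrocyte markers (1115 to 1586 CPM in NexCre controls) were lower in sum in NexCre than in Emx1Cre controls. The subplate list was split, with 8 genes called lower and 3 higher, while 7 astrocyte markers were called lower and 0 higher. Beside these, 19.3% of all genes were called lower and 26.6% higher. In sum, the 12 radial glia and progenitor markers were higher in NexCre controls, at 1033 to 1383 CPM against 436 to 707. So were the 7 Cajal-Retzius cell markers, at 513 to 567 CPM against 128 to 152. Their part in the protocadherin differences was not tested.

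None of 22 listed genes that act on the clusters' promoters passed the test in a mutant comparison. The list (CTCF, cohesin and its loading and unloading factors, DNA methyltransferases, and chromatin repressors such as Smchd1 and Setdb1) had 0 called in Emx1Cre mutants, with 2 at an unadjusted p under 0.05 (beside 7.59% of all genes), and 0 in NexCre mutants, with 1 (beside 3.96%). DESeq2 called 0 in each. Their median log2 fold changes were −0.05 and 0.04. The lowest p belonged to the DNA methyltransferase Dnmt3a, at 151 and 146 CPM in Emx1Cre controls and 220 and 198 in Emx1Cre mutants, with 239 and 170 in NexCre controls and 154 and 157 in NexCre mutants. It was higher without overlap in Emx1Cre mutants, at 0.50 ± 0.17 with an adjusted p of 0.495, and lower without overlap in NexCre mutants, at −0.39 ± 0.17 with an adjusted p of 1.00, and the difference of 0.89 ± 0.24 had an adjusted p of 0.648. The histone demethylase gene Kdm1a was at −0.35 ± 0.13 in Emx1Cre mutants and the cohesin loading gene Mau2 at 0.16 ± 0.12 in NexCre mutants.

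Between the control libraries, 13 of these 22 genes were higher in NexCre and 2 lower, beside 26.6% and 19.3% of all genes. Nipbl, which loads cohesin onto DNA, had 42.1 and 45.3 CPM in Emx1Cre and 146 and 142 CPM in NexCre controls, a log2 fold change of 1.72 ± 0.17. Wapl, which releases cohesin, was at 1.66 ± 0.19, the cohesin subunit Stag1 at 1.52 ± 0.15 and the repressor Rest at 1.54 ± 0.26.

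A second list held 22 partners and signalling genes of the protocadherins: focal adhesion kinases, the WAVE complex, Ret, neuroligins and proteases. In Emx1Cre mutants 0 were called, with 3 at an unadjusted p under 0.05 (beside 7.59% of all genes), in NexCre mutants 0 were called, with 0 at that level (beside 3.96%), and DESeq2 called 0 in each. Ptk2b, the kinase Pyk2 that protocadherins hold inactive, had 145 and 198 CPM in Emx1Cre controls and 110 and 112 CPM in mutants, which did not overlap, at −0.63 ± 0.18 with an adjusted p of 0.348. Nlgn1, a synaptic adhesion protein that gamma protocadherins bind, was at −0.57 ± 0.23 in Emx1Cre mutants. In NexCre mutants the lowest p-values belonged to the WAVE complex genes Brk1, at −0.20 ± 0.14, and Wasf1, at 0.18 ± 0.19. Between controls, 4 of the 22 were higher in NexCre and 7 lower, beside 26.6% and 19.3% of all genes. Wasf1 was lower, at −2.35 ± 0.20, as were Ptk2b at −1.42 ± 0.18 and Ret, a receptor that protocadherins stabilise, at −1.22 ± 0.29, while the membrane protein gene Marcks was higher, at 1.40 ± 0.17. The comparison of the controls shares those libraries with both mutant comparisons.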

How the data were processed

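RNA from subplate pools was sequenced in 8 libraries as paired reads of 100 bp on TruSeq RNA V2 libraries, per the labels' protocols. The authors deposited a table of read counts per gene for each line. The submitters' processing notes name HISAT2, SAMtools, DESeq2 and build mm10. Tool versions were not given in the sources used here, nor were the counting program, its annotation and whether it used strand.

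The tables were joined by symbol into 55202 genes, of which 53543 (96.99%) matched GENCODE M21 (mm10), used for positions and exonic bases. Symbols turned into dates were left out, 26 and 24 rows with 0.239% to 0.269% of reads. The filter filterByExpr by group (minimum count 10, minimum total 15) left 22820 genes. TMM scaling and a single edgeR 4.0.16 quasi-likelihood model (R 4.3.3, prior count 0.125) covered the 8 libraries, without terms other than group, with 4 residual and 5.95 prior degrees of freedom, and a biological coefficient of variation of 26.2%. Tests were two-sided, adjusted by Benjamini-Hochberg over all 22820 genes, with a threshold of 0.05. The fit was run on simulated counts with less spread than these data and no difference between lines. This checked the code and not its power on these data.

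Named were members called, the 3 with the lowest p per cluster and mutant comparison, the 2 with the most CPM per cluster, the C-type genes and Lhx2, and per companion list up to 4 called genes or the 2 with the lowest p. Pcdhb14 and Pcdhb20, members without overlap, the levels per kilobase, Rn7sk and the readthrough genes were chosen after their values were seen. Members and lists were chosen with earlier results of these data known. Alternatives were other scalings (median of ratios, RLE, and upper quartile), no or a strict low-count filter (1 CPM in 2 libraries, mean count 20), DESeq2 1.42.0, each line fitted alone, a replicate block and leaving out each library.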

Additional observations from a re-analysis of the deposited data

Results flagged for a closer look

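Pcdhb22, a beta gene at the end of its cluster, had both mutants above the controls in the Emx1Cre line and below them in the NexCre line. It had 21.4 and 20.3 CPM in Emx1Cre controls and 23.3 and 25.3 CPM in Emx1Cre mutants, so that both mutants were above both controls. In the NexCre line it had 28.8 and 29.2 CPM in controls and 27.8 and 18.1 CPM in mutants, both below. The log2 fold changes were 0.22 ± 0.21 and −0.34 ± 0.21. Their difference of 0.558 ± 0.30 did not pass edgeR's quasi-likelihood test, with an adjusted p of 0.945, and neither effect passed alone. Leaving out 1 library moved the NexCre value between −0.693 and −0.063, the latter without NexCre mutant 2, the library at 18.1 CPM.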

How the results depend on the processing

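The count of clustered protocadherins called in each mutant comparison and in the difference of the lines was 0 under every alternative run, the replicate block and each left-out library included. The count of all genes called moved: in Emx1Cre mutants from 18 to 585 without the low-count filter, 298 with DESeq2, 82 with the replicate block and 0 with each line fitted alone, and in NexCre mutants from 7 to 251, 76, 22 and 17. It ran from 0 to 28 and from 1 to 43 when a library was left out. Deviations of libraries with the same number correlated with r = 0.193 in the Emx1Cre and 0.0917 in the NexCre line, over 2 pairs each, so the numbers were not taken as pairs. Between the controls, 8 members were called, 9 without the filter and 7 with RLE or upper-quartile scaling, the strict filter or DESeq2. When a library was left out, 6 to 9 were called. The replicate block called 12, but there the lines are compared at the fitted level of libraries numbered 1, which is not the same comparison.

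When a library was left out, median log2 fold changes ran from −0.435 to 0.217 (alpha), −0.281 to −0.0141 (beta) and −0.325 to 0.119 (gamma) in Emx1Cre mutants. In NexCre mutants they ran from −0.163 to 0.0655, −0.411 to 0.0939 and −0.0829 to −0.00503. Ratios of summed CPM, over the same order, ran from 0.732 to 1.22, 0.869 to 0.96 and 0.854 to 1.18, and from 0.849 to 1.02, 0.779 to 1.07 and 0.956 to 0.996. Between libraries of the same number, a comparison chosen after seeing the data, the ratio was 1.09 and 0.814 (alpha), 0.921 and 0.904 (beta) and 1.01 and 0.983 (gamma) in the Emx1Cre line and 1.05 and 0.829, 1.04 and 0.801, and 0.947 and 1.01 in the NexCre line.

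The sign of these log2 fold changes, none of them called, turned when a library was left out. In Emx1Cre mutants the ranges were −0.472 to 0.142 for Pcdha12, −0.562 to 0.213 for Pcdhac2, −0.0112 to 0.249 for Pcdhgc3 and −0.153 to 0.583 for Pcdhgc4. In NexCre mutants they were −0.124 to 0.185 for Pcdhac1, −0.416 to 0.065 for Pcdhb17, −0.329 to 0.0748 for Pcdhb19, −0.0852 to 0.0499 for Pcdhgc3, −0.322 to 0.205 for Pcdhgc4 and −0.211 to 0.426 for Pcdhgc5. Pcdhgc3 in NexCre mutants was also at 0.001 with RLE scaling, 0.00173 with the strict filter and 0.00103 with DESeq2. The cause was not tested. Low read counts limit what can be said of Pcdhb1, Pcdha4 and Pcdhga10.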
